A study of Mus musculus with 6 samples.

Results

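Cytochrome P450 (P450) families 1 to 3 were examined in the livers of mice 24 hours after carbon tetrachloride (CCl4). The members were all genes of the deposited table whose symbol is Cyp followed by family 1, 2 or 3, a subfamily letter and a number, 62 of 24346 genes. RNA from whole liver was sequenced in 6 male mice of the C57/BL6 background at 8 weeks of age, each given 0.6 μl CCl4 per g body weight into the abdomen. Of these, 3 were med23f/f controls, which carry the floxed gene without Cre, and 3 were labelled med23Δli, in which Cre driven by the Albumin promoter removes floxed Med23 sequence from hepatocytes only. MED23 is a subunit of the Mediator complex, which links transcription factors to RNA polymerase II. The comparison asks which genes differ between injured livers with and without hepatocyte MED23. Each library is 1 mouse, so the p-values measure the spread between these mice.

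P450 enzymes are haem proteins of the endoplasmic reticulum that add an oxygen atom to drugs, steroids, fatty acids and toxins, with electrons from cytochrome P450 reductase and cytochrome b5. In the liver many of them are made mostly by hepatocytes around the central vein, and their genes are switched by nuclear receptors and by the aryl hydrocarbon receptor (AHR): AHR acts on the Cyp1 genes, the constitutive androstane receptor (CAR) on Cyp2b genes and the pregnane X receptor (PXR) on Cyp3a genes. CYP2E1 converts CCl4 to the trichloromethyl radical, which is why the toxin kills hepatocytes around the central vein.

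The values are FPKM, in which fragments are scaled to transcript length and to the mapped fragments of the library. Since read counts cannot be had from them, the depth behind a value is unknown. Med23 itself was at 3.42, 2.97 and 4.14 FPKM in controls and at 3.40, 3.40 and 2.91 FPKM in livers labelled med23Δli, a log2 fold change of -0.11 ± 0.17 (SE, n = 3 per group, limma adjusted p = 0.685), so that the directions given here rest on the labels. The hepatocyte marker Alb had 12624 to 22376 FPKM over the 6 livers. Adipoq, a marker of fat cells, had 5.65 FPKM in replicate 2 labelled med23Δli and at most 0.0907 FPKM in the other livers, and Plin1 and Ucp1 were listed at 0 in all livers but that one. The 5 fat cell markers summed to 188 FPKM there, to 53.2 to 66.5 FPKM in the controls and to 23.6 and 32.2 FPKM in the other livers labelled med23Δli, with Fabp4 as the main part. In the controls Fabp4 had 53.2 to 66.3 FPKM while Adipoq, Plin1 and Ucp1 were at 0, so those sums are not read as fat cells. The part of these 5 markers in the results was not tested, and the counts of calls are also given without replicate 2 labelled med23Δli. Control replicate 3 stood apart from the other controls in the levels of several P450 genes, given with those genes.

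P450 genes were higher more often than lower in the livers labelled med23Δli. Cyp2e1, Cyp1a2, Cyp2c29, Cyp2c50, Cyp2c54, Cyp2c68 and Cyp2b10 rose, whereas Cyp2a5 and Cyp2c70 fell. A gene was called where the adjusted p from limma (Benjamini-Hochberg adjustment over 11956 genes) was under 0.05 and the change was more than 2-fold on the log2(FPKM + 0.1) scale, which understates the change of low genes. Of the 33 members that were tested, those averaging 0.5 FPKM or more over the 6 livers, 7 were called higher (21.2%) against 4.45% of all genes tested, and 2 were called lower (6.06%) against 3.45%, in all 9 (27.3%) against 7.9%. The median log2 fold change was 0.66 over the 33 members and 0.02 over all genes tested. Of these members, Cyp2a22 (1.13) and Cyp2c69 (1.25) averaged 0.450 and 0.283 FPKM in the controls. They passed the filter only through the labelled livers, lie above this median and are no support for it. With an adjusted p under 0.05 at any size, 10 members were higher and 3 were lower (background 11.6% and 9.48%), and 20 members did not pass. The groups did not overlap for 13 members that were higher (39.4%, background 23.3%) and 3 that were lower (9.09%, background 20.4%), in all 16 (48.5%, background 43.7%). Without the replicate 2 labelled med23Δli that carried the fat cell markers, 5 members were called higher and 1 lower, the calls of Cyp2b10, Cyp2c68 and Cyp2c70 being lost. Leaving out control replicate 3 gave 10 called higher and 3 lower, with Cyp3a13, Cyp2d37-ps and Cyp2c39 joining the former and Cyp2u1 the latter. Of these, Cyp2c39 is under the filter when all livers are counted and passed it here through the labelled livers, so its call is no support. With no filter on low genes 5 were called higher and 3 lower: Cyp2b10, Cyp2c50 and Cyp2c68 lost their call, and Cyp2b9 and Cyp2d11, both under 0.5 FPKM, were called higher and lower. Cyp2b9, listed at 0 in all controls, entered that fit only through the labelled livers, so its call is no support. In whole liver, fewer cells of a type and less RNA per cell cannot be told apart.

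**Figure D1:**
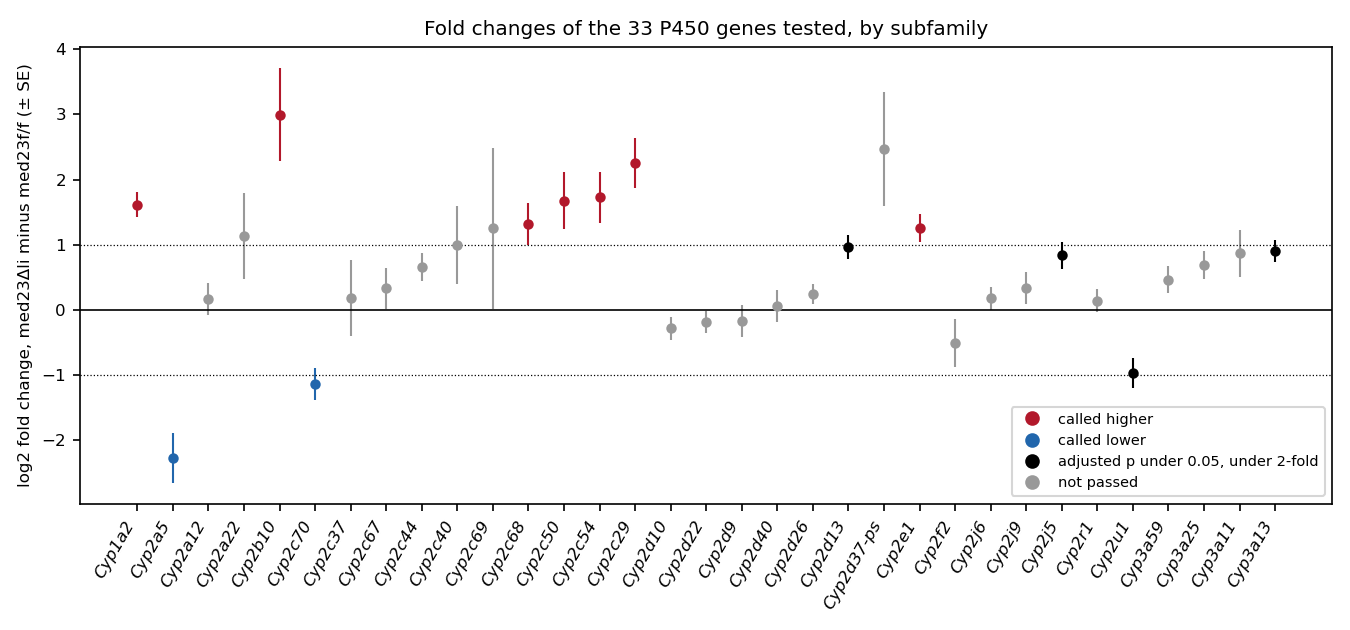
Log2 fold change (livers labelled med23Δli minus med23f/f controls, y axis) of each of the 33 P450 genes tested, ordered by subfamily along the x axis. Points are limma estimates and bars are ± 1 SE over 3 livers per group. Dotted lines mark a 2-fold change. The 7 genes called higher lie between 1.26 (Cyp2e1) and 3.00 (Cyp2b10), and the genes called lower are at -2.27 (Cyp2a5) and -1.13 (Cyp2c70).

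The most abundant of the genes that rose was Cyp2e1 (ENSMUSG00000025479.9, chr7:140763739-140774987 of mm10, plus strand), whose enzyme activates CCl4. It had 184, 243 and 336 FPKM in the controls and 595, 617 and 559 FPKM in the livers labelled med23Δli. Every labelled liver was thus above every control, and the controls were spread more widely (254 ± 76.7, SD, n = 3) than the labelled livers (590.1 ± 29.2, SD, n = 3). The log2 fold change was 1.26 ± 0.22 (SE) with an adjusted p of 0.00896. It was 1.48 (adjusted p = 0.00227) without control replicate 3, whose Cyp2e1 level was the closest to the other group, and 1.04 (adjusted p = 0.0194), just over 2-fold, without control replicate 1, whose level was the lowest. Cyp2e1 alone made up 9.23% of the summed FPKM of all members in the controls and 17.5% in the livers labelled med23Δli.

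Cyp1a2 (chr9:57676937-57683703, minus strand) encodes the hepatic enzyme that oxidises caffeine and heterocyclic amines. Its levels were 33.05, 20.04 and 28.9 FPKM in the controls and 82.8, 77.4 and 86.9 FPKM in the livers labelled med23Δli. The groups lay far apart relative to their spread, with a log2 fold change of 1.62 ± 0.19 (SE) and an adjusted p of 0.00293, the smallest among the members. Its neighbour Cyp1a1, the classical AHR target, lies beside it in the opposite orientation and was near the lower limit of the values, at 0.174, 0.412 and 0.228 FPKM in the controls and 0.349, 1.38 and 0.397 FPKM in the livers labelled med23Δli. The 1 high value is that of the replicate 2 with fat cell markers. Its mean of 0.490 FPKM was the highest among the 29 members under the filter, and its adjusted p was 0.274 in the fit with no filter. Cyp1b1, a P450 mainly of tissues other than liver, had 0.0725 to 0.158 FPKM and was under the filter.

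The sequence upstream of the start of a gene is where the general transcription machinery and many of the factors above bind. The 200 bases before the RefSeq start (GRCm38.p6, the assembly of mm10) of 4 genes that rose, each from a different subfamily, are shown 5′ to 3′ on the strand of the gene. Capitals mark the TATA box TATAAA on the strand of the gene, and on either strand the nuclear receptor half-site AGGTCA and the core site of AHR, GCGTG.
Cyp2e1 (chr7:140763619-140763818, plus strand): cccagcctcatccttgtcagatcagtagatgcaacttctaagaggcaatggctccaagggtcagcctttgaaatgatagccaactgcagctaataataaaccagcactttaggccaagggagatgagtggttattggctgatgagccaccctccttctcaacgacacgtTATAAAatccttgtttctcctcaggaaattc
Cyp1a2 (chr9:57683656-57683855, minus strand): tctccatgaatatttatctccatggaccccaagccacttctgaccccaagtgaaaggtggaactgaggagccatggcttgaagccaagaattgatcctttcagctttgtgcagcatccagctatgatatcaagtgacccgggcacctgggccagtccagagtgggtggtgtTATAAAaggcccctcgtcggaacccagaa
Cyp2c29 (chr19:39286885-39287084, plus strand): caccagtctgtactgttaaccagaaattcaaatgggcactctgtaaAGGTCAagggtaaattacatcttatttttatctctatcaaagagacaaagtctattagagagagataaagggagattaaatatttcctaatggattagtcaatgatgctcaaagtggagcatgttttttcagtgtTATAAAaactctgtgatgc
Cyp2b10 (chr7:25897458-25897657, plus strand): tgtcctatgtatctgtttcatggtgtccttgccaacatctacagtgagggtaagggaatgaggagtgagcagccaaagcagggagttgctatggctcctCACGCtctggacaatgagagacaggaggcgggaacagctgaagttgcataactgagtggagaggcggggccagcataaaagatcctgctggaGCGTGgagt
Cyp2e1, Cyp1a2 and Cyp2c29 have a TATA box close to the start. Cyp2c29 also has a half-site, Cyp2b10 has the AHR core letters on both strands at separate places, and the Cyp1a2 stretch holds neither of these. Over windows from 250 bases before to 50 bases after the start, TATAAA was found in 22 of the 52 members with a window (42.3%) and in 8.32% of all 32851 windows. AGGTCA was in 18 members (34.6%, all windows 16.3%) and GCGTG in 9 members (17.3%, all windows 32.4%). None of the motifs overlap in the stretches shown. Such matches describe letters and do not show binding.

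**Figure D2:**
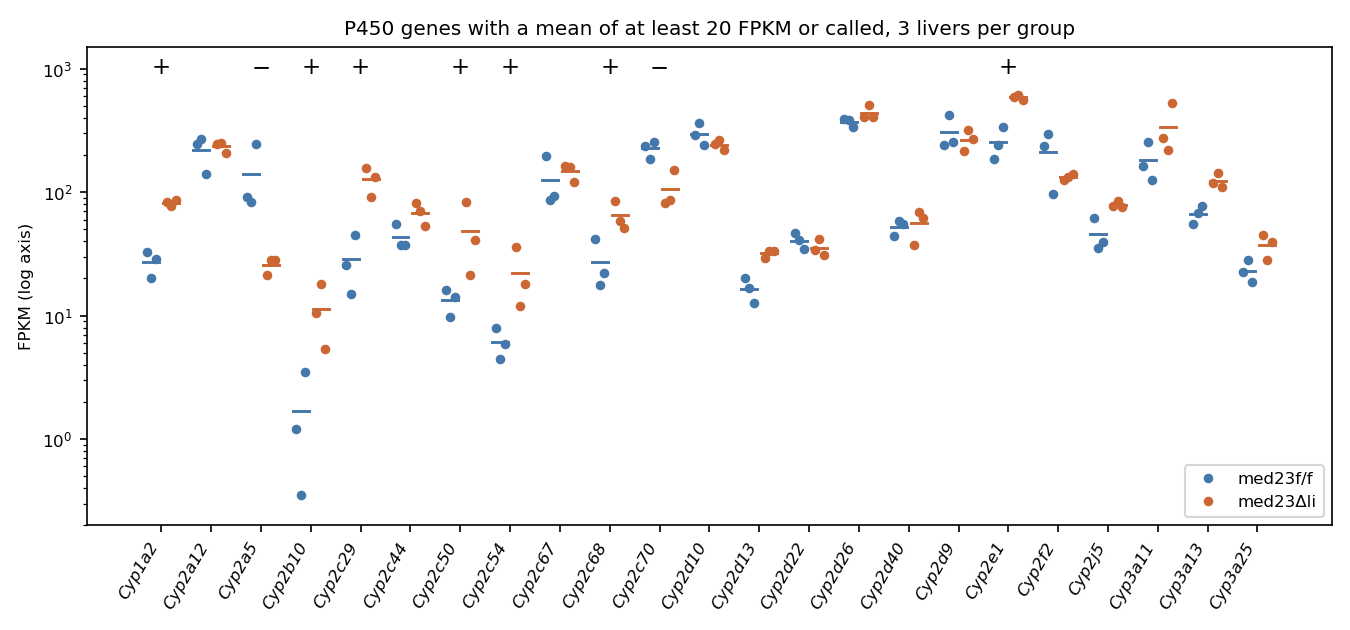
FPKM of each liver (log y axis) for the 23 P450 genes that averaged 20 FPKM or more or were called, ordered by subfamily. Blue points are the 3 med23f/f controls, orange points the 3 livers labelled med23Δli, and short lines are group means. A plus marks genes called higher and a minus genes called lower. For Cyp1a2, Cyp2e1 and Cyp2c29 the orange points all lie above the blue ones, and for Cyp2a5 all lie below.

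The Cyp2c subfamily, with 16 members, moved in both directions. CYP2C enzymes oxidise drugs and turn arachidonic acid into epoxides, and CYP2C70 makes the muricholic acids, the hydrophilic bile acids of mice. Of the 10 Cyp2c genes tested, 4 were called higher and Cyp2c70 was called lower, against 4.45% and 3.45% of all genes tested. Because of these opposite changes the summed level of the subfamily was 476 ± 114 FPKM in the controls and 596 ± 103 FPKM in the livers labelled med23Δli (SD, n = 3 each), and the groups overlapped. All Cyp2c genes except Cyp2c44 lie in 1 cluster on chromosome 19, from Cyp2c55 (start 39007019) to Cyp2c70 (end 40187333).

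Cyp2c29 (chr19:39269405-39330713, plus strand) had the largest log2 fold change of the tested Cyp2c genes. It had 25.9, 14.9 and 44.98 FPKM in the controls and 156, 91.7 and 134 FPKM in the livers labelled med23Δli. The lowest labelled liver had more than the highest control, and the log2 fold change was 2.26 ± 0.38 (SE, adjusted p = 0.00853). Its annotated span overlaps that of the pseudogene Cyp2c53-ps on the same strand, which had at most 0.0265 FPKM.

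At the other end of the cluster Cyp2c70 (chr19:40153353-40187333, minus strand) had 238, 187 and 255 FPKM in the controls and 82.3, 86.9 and 150 FPKM in the livers labelled med23Δli. The groups did not overlap (log2 fold change -1.13 ± 0.25, SE, adjusted p = 0.0185). The call was lost without control replicate 1 (adjusted p = 0.0522) and without either of the labelled replicates 1 and 2 (0.0701 and 0.0710). Within each liver the log2 ratio of Cyp2c29 to Cyp2c70 was -3.19, -3.64 and -2.50 in the controls and 0.92, 0.08 and -0.16 in the livers labelled med23Δli, so that Cyp2c29 was far below Cyp2c70 in every control and between slightly below and above it in the labelled livers. This ratio and the other ratios between Cyp2c genes were chosen after the values were seen and are given as descriptions, with no test.

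Next to Cyp2c70 lie Cyp2c50 and Cyp2c54, whose products are 92.5% identical. Cyp2c50 had 16.2, 9.72 and 14.0 FPKM in the controls and 82.8, 21.5 and 41.1 FPKM in the livers labelled med23Δli. Cyp2c54 was at a lower level with the same order of livers, at 7.92, 4.41 and 5.89 FPKM in the controls and 36.0, 11.9 and 18.0 FPKM in the livers labelled med23Δli. For both genes the replicate 1 labelled med23Δli was the highest and the replicate 2 with fat cell markers the lowest of its group, though above every control. The log2 fold changes were 1.68 ± 0.44 (adjusted p = 0.0335) for Cyp2c50 and 1.73 ± 0.39 (SE, adjusted p = 0.0204) for Cyp2c54. Cyp2c50 lost its call without control replicate 1 or 2 and without labelled replicate 1 or 3 (adjusted p between 0.0603 and 0.0966), with no filter (0.0687) and with robust variance estimates (0.0570). Cyp2c54 lost its call without control replicate 2 (0.0559) and without labelled replicate 3 (0.0640). The log2 ratio of Cyp2c54 to Cyp2c50 within a liver stayed between -1.24 and -0.85 in all 6 livers (difference of the groups 0.05). Their coding sequences are 95.2% identical, so reads may have been split between them and their separate values are uncertain. The 2 calls may thus not be separate results, and the part of shared reads in the steady ratio was not tested.

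Cyp2c37, which lies in the same stretch and whose protein is 94.5% identical to that of Cyp2c50, was at a much lower level and did not pass the test. It had 3.66, 1.27 and 6.68 FPKM in the controls and 5.99, 2.06 and 3.75 FPKM in the livers labelled med23Δli (log2 fold change 0.18, adjusted p = 0.849). The log2 ratio of Cyp2c50 to Cyp2c37 was 1.06 to 2.84 in the controls and 3.33 to 3.77 in the livers labelled med23Δli, a difference of 1.5. Their coding sequences are 96.1% identical, so this ratio is uncertain in the same way. The bases before the starts of these 2 genes, shown because their levels differ beside a similar protein, match at 177 of 197 aligned positions (89.8%). Capitals mark differing bases and bases opposite a gap.
Cyp2c50 (chr19:40089479-40089678, plus strand): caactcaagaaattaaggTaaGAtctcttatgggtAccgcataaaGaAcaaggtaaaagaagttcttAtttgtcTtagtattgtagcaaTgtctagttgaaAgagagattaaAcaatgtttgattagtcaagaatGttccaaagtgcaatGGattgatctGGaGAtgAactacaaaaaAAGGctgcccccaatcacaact
Cyp2c37 (chr19:39992222-39992418, plus strand): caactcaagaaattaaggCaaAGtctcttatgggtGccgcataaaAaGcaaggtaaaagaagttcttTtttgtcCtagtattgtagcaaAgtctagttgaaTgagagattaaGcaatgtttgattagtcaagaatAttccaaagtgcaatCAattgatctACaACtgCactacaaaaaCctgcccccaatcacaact
The TATA box letters TATAAA are in neither stretch.

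Cyp2c68 and Cyp2c67 belong to a group of near-identical genes with Cyp2c40 and Cyp2c69, whose proteins are 93.9% to 97.2% identical, so reads may have been split between them and their separate values are uncertain. Cyp2c68 had 41.7, 17.7 and 21.9 FPKM in the controls and 85.4, 58.2 and 51.0 FPKM in the livers labelled med23Δli (log2 fold change 1.32 ± 0.33, SE, adjusted p = 0.0275). All labelled livers were above the controls. The call was lost without control replicate 2 (adjusted p = 0.0665), without each of the labelled replicates 1, 2 and 3 (0.0957, 0.0719 and 0.0595) and with no filter (0.0572). Cyp2c67 was the most abundant of the 4, at 197, 86.3 and 93.1 FPKM in the controls and 164, 160 and 120 FPKM in the livers labelled med23Δli, and did not pass (0.33, adjusted p = 0.464), though without control replicate 1 it was at 0.71 (adjusted p = 0.0440). Control replicate 1 had the highest Cyp2c67 and the highest Cyp2c68 of the controls. The log2 ratio of Cyp2c68 to Cyp2c67 was steady in the controls, between -2.28 and -2.08, and lay between -1.46 and -0.94 in the livers labelled med23Δli (difference 0.99). Summed over the 4 genes, the controls had 242, 105 and 116 FPKM and the livers labelled med23Δli had 261, 220 and 173 FPKM, which overlap. Cyp2c40 and Cyp2c69 were both at their highest in the replicate 1 labelled med23Δli, at 6.92 and 5.09 FPKM. The stretches before the starts of Cyp2c68 and Cyp2c67, shown because the former was called and the latter was not, have differing bases and bases opposite a gap in capitals and match at 183 of 197 aligned positions (92.9%).
Cyp2c68 (chr19:39741102-39741300, minus strand): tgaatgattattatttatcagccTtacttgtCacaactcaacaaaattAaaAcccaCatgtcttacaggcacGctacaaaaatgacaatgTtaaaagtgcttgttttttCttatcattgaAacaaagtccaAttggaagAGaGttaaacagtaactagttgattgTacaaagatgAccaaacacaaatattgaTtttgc
Cyp2c67 (chr19:39649091-39649288, minus strand): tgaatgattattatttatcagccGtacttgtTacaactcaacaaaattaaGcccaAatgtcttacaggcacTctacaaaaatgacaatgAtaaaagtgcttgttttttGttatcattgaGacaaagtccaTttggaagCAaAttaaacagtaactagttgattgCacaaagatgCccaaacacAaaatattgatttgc
The stretch of Cyp2c67 ends 48 bases before its RefSeq start, because the start of its aligned partner Cyp2c68 comes earlier. TATAAA is in neither stretch. In the windows from 250 bases before to 50 bases after the start it was found for Cyp2c67 and not for Cyp2c68.

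**Figure D3:**
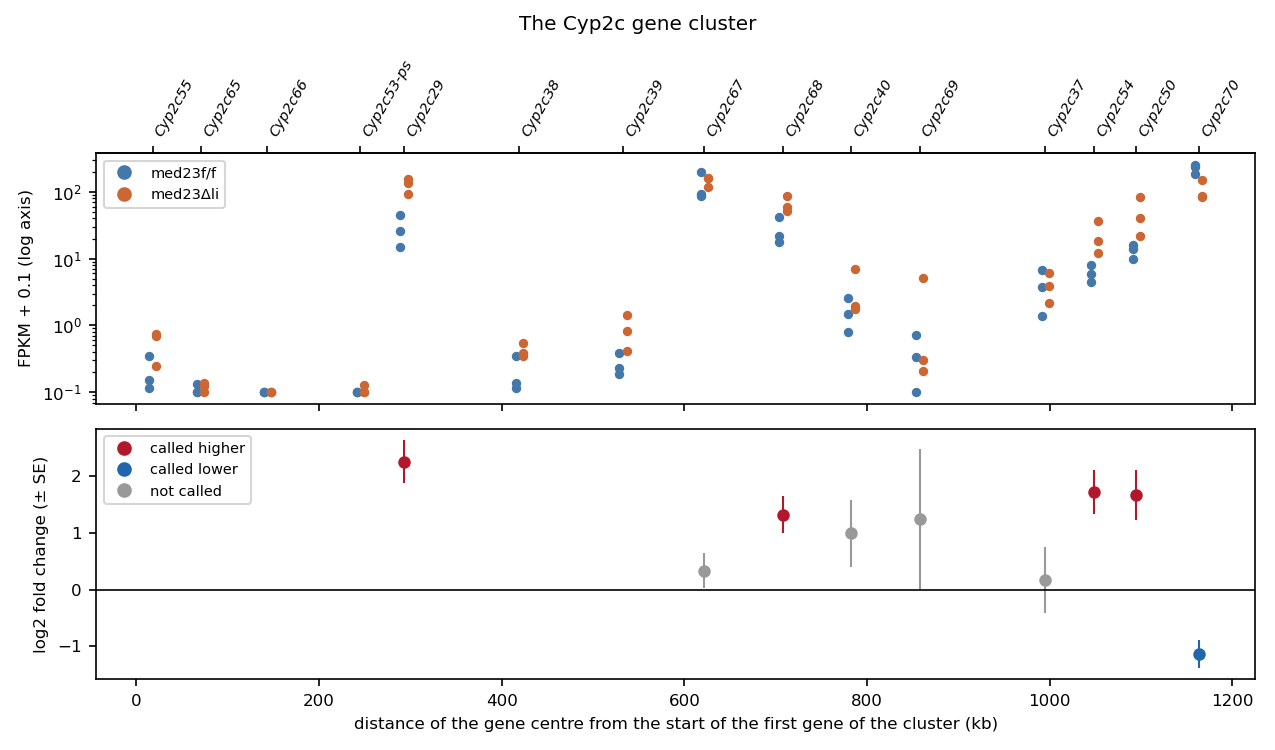
The Cyp2c cluster by distance of each gene centre from the start of the first gene (kb, x axis). The upper panel gives FPKM + 0.1 of each liver on a log axis, blue for med23f/f controls and orange for livers labelled med23Δli, and the lower panel gives the log2 fold change with ± 1 SE over 3 livers per group. Cyp2c29 and Cyp2c68, called higher, lie apart from each other, whereas Cyp2c54 and Cyp2c50, called higher, and Cyp2c70, called lower, follow each other at the end of the cluster.

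Cyp2c44 (Cyp2c23 in GENCODE), an epoxygenase gene outside the cluster, had 55.1, 37.6 and 37.3 FPKM in the controls and 81.8, 69.9 and 53.1 FPKM in the livers labelled med23Δli and did not pass (0.66 ± 0.22, SE, adjusted p = 0.0638). The other 6 members of the subfamily had at most 1.33 FPKM in any liver.

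Of the 3 Cyp2a genes tested, Cyp2a5 was called lower (3.45% of all genes tested) and the others did not pass. Cyp2a5 (chr7:26835305-26843548, plus strand), whose enzyme oxidises coumarin and nicotine, had 91.9, 83.4 and 247 FPKM in the controls and 21.2, 28.5 and 28.1 FPKM in the livers labelled med23Δli. The lowest control had more than the highest labelled liver, and control replicate 3 was far above the other controls. The log2 fold change was -2.27 ± 0.38 (SE, adjusted p = 0.00874), and -1.77 (adjusted p = 0.00147) without that control. Cyp2a12, which encodes a steroid hydroxylase, had 245, 269 and 141 FPKM in the controls and 247, 253 and 209 FPKM in the livers labelled med23Δli, which overlap (0.16, adjusted p = 0.652). Cyp2a22, the remaining gene tested, had 0.133 to 1.61 FPKM (1.13, adjusted p = 0.246). The summed level of the 4 Cyp2a genes was 360 ± 26.7 FPKM in the controls and 264 ± 23.1 FPKM in the livers labelled med23Δli (SD, n = 3 each).

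Cyp2a4, a testosterone 15α-hydroxylase known for its higher level in female liver, is the near-identical copy of Cyp2a5: 12 of 494 residues and 23 of 1482 coding bases differ. It had 0.562, 0.456 and 0.499 FPKM in the controls and 0.819, 0.247 and 0.0212 FPKM in the livers labelled med23Δli, under the filter (adjusted p = 0.478 in the fit with no filter). Cyp2a5 was thus far more abundant than its copy in all 6 livers, and reads that match both could move either value. The log2 ratio of Cyp2a5 to Cyp2a4 was 7.12 to 8.69 in the controls and 4.53 to 7.86 in the livers labelled med23Δli, with a difference of -1.43 (exact two-sided permutation p = 0.3, adjusted p = 0.4 over 12 ratios), where 3 livers against 3 allow no p below 0.1. This difference was -0.57 without labelled replicate 1, -0.92 without control replicate 3 and -2.23 without labelled replicate 3, and -2.04 and -0.82 with pseudocounts of 1 and 0.01. The stretches before the 2 starts, shown because the copies differ so much in level, match at 197 of 200 positions (98.5%), with the differing bases in capitals.
Cyp2a5 (chr7:26835138-26835337, plus strand): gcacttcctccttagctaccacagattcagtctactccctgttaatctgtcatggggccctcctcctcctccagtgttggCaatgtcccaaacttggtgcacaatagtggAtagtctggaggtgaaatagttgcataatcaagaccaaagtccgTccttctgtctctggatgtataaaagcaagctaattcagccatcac
Cyp2a4 (chr7:26306992-26307191, plus strand): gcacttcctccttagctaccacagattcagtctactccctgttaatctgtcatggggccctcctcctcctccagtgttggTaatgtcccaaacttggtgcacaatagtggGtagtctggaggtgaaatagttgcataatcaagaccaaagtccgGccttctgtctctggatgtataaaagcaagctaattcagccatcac
Both hold the TATA box letters.

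Cyp2b10 (chr7:25897620-25926624, plus strand) is the classical target of CAR and of phenobarbital. It had 1.20, 0.350 and 3.48 FPKM in the controls and 10.6, 18.1 and 5.41 FPKM in the livers labelled med23Δli. The groups did not overlap, though each spread several-fold. The log2 fold change was the largest of the members called, 3.00 ± 0.72 (SE, adjusted p = 0.0253). The highest value was that of the replicate 2 with fat cell markers, and without it the log2 fold change was 2.58 (adjusted p = 0.0838). It was 3.74 (adjusted p = 0.00597) without control replicate 3 and 2.24 (adjusted p = 0.0443) without control replicate 2, the lowest of the controls. The adjusted p also missed the threshold without control replicate 1 (0.0652), without the labelled replicate 1 (0.0763), with no filter on low genes (0.0575) and with robust variance estimates (0.0658). Cyp2b9 was listed at 0 in all controls and had 0.178, 0.233 and 0.0563 FPKM in the livers labelled med23Δli, and Cyp2b13 was listed at 0 in all 6 livers. Both were under the filter of 0.5 FPKM. In the fit with no filter (17752 genes) Cyp2b9 was called higher (adjusted p = 0.0376), with no fold to be given against controls listed at 0. It entered that fit only through the labelled livers, so its call is no support.

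The Cyp2d subfamily, which oxidises many basic drugs and steroids, was the most abundant and had about the same summed level in both groups, at 1087 ± 184 FPKM in the controls and 1085 ± 145 FPKM in the livers labelled med23Δli (SD, n = 3 each). By limma 0 of its 7 tested genes were called, 1 passed the adjusted p and 2 had an unadjusted p under 0.05. Cyp2d26, the most abundant member in the controls, had 388, 386 and 336 FPKM in the controls and 405, 509 and 405 FPKM in the livers labelled med23Δli (0.24 ± 0.15, SE, adjusted p = 0.270). Cyp2d9, a steroid hydroxylase gene of male mouse liver, had 240, 423 and 255 FPKM in the controls and 214, 318 and 269 FPKM in the livers labelled med23Δli (-0.17, adjusted p = 0.654). Neither gene passed, although the groups did not overlap for Cyp2d26, and the log2 fold changes of Cyp2d10, Cyp2d22 and Cyp2d40 were likewise between -0.28 and 0.06 with adjusted p-values between 0.287 and 0.874. Cyp2d13, which RefSeq lists as a transcribed pseudogene, had 20.1, 16.7 and 12.7 FPKM in the controls and 29.1, 33.5 and 33.2 FPKM in the livers labelled med23Δli. It passed the adjusted p but fell just short of 2-fold (0.97 ± 0.18, SE, adjusted p = 0.0117). Another pseudogene, Cyp2d37-ps, given as an example outside the rule for named genes, had 5.43, 4.00 and 0.282 FPKM in the controls and 11.7, 11.5 and 10.7 FPKM in the livers labelled med23Δli. Its log2 fold change of 2.47 (adjusted p = 0.0791) became 1.26 (adjusted p = 0.00372) without control replicate 3, which was far below the other controls.

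The Cyp3a genes encode the main enzymes for steroids and drugs and lie on chromosome 5. Their summed level was 272 ± 69.6 FPKM in the controls and 505 ± 155 FPKM in the livers labelled med23Δli (SD, n = 3 each), and the groups did not overlap, but by limma 0 of the 4 genes tested were called, 1 passed the adjusted p and 3 had an unadjusted p under 0.05. Cyp3a11 (chr5:145854426-145879964, minus strand), the PXR target among them, had 163, 254 and 125 FPKM in the controls and 274, 218 and 529 FPKM in the livers labelled med23Δli. The replicate 3 labelled med23Δli was far above the rest and the groups overlapped (0.87 ± 0.36, SE, adjusted p = 0.122). Cyp3a13 had 54.8, 67.5 and 77.2 FPKM in the controls and 119, 143 and 110 FPKM in the livers labelled med23Δli, apart from the controls but under 2-fold (0.90 ± 0.17, SE, adjusted p = 0.0124). Cyp3a25 had 22.5, 28.0 and 18.7 FPKM in the controls and 44.8, 28.1 and 39.7 FPKM in the livers labelled med23Δli (0.70, adjusted p = 0.0548). Its protein is 95.03% identical to that of Cyp3a59, which had 1.59 to 3.34 FPKM, so their values are uncertain in the same way. Cyp3a41a and Cyp3a44, which are higher in female mice, had at most 0.0150 and 0.0758 FPKM in any liver. The proteins of Cyp3a41a and Cyp3a41b are identical.

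Cyp2f2 (chr7:27119909-27133660, plus strand) is the P450 gene of hepatocytes near the portal vein and, in the lung, activates naphthalene. It had 238, 296 and 96.0 FPKM in the controls and 125, 134 and 141 FPKM in the livers labelled med23Δli. Of the controls, 2 lay above the labelled livers and replicate 3 below them, and the gene did not pass (-0.51 ± 0.37, SE, adjusted p = 0.350). The result turned on that control: without it the log2 fold change was -0.99 (adjusted p = 0.00567), just under 2-fold. The log2 ratio of Cyp2e1 to Cyp2f2 within a liver was -0.37, -0.28 and 1.81 in the controls and 2.25, 2.20 and 1.99 in the livers labelled med23Δli, a difference of 1.76 (exact permutation p = 0.1, adjusted p = 0.15). Control replicate 3 was close to the labelled livers in this ratio and the other controls were not, and the difference was 2.47 without it and 1.39 without control replicate 1.

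Of the remaining subfamilies, Cyp2j5, which makes arachidonic acid epoxides in liver and kidney, had 61.6, 35.6 and 39.4 FPKM in the controls and 77.8, 84.1 and 75.4 FPKM in the livers labelled med23Δli. It passed the adjusted p under 2-fold (0.84 ± 0.21, SE, adjusted p = 0.0281). Cyp2u1, a fatty acid hydroxylase gene, had 3.86, 3.67 and 2.57 FPKM in the controls and 1.89, 1.90 and 1.24 FPKM in the livers labelled med23Δli. All labelled livers were below the controls, again just under 2-fold (-0.97 ± 0.24, SE, adjusted p = 0.0266). Cyp2r1, the vitamin D 25-hydroxylase gene, had 4.38 to 5.34 FPKM in the controls and 4.51 to 6.43 FPKM in the livers labelled med23Δli (0.15, adjusted p = 0.569). Cyp2s1, a P450 mainly of epithelia outside the liver, had at most 0.228 FPKM. Of the 29 members under the filter, 9 were listed at 0 in all 6 livers.

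Together the 62 genes summed to 2744, 2973 and 2551 FPKM in the controls and 3308, 3384 and 3411 FPKM in the livers labelled med23Δli. The labelled livers were all above the controls, by 1.22 times in the mean. Without Cyp2e1 the sums were 2214 to 2730 FPKM in the controls and 2713 to 2852 FPKM in the livers labelled med23Δli, which overlap. Members other than the 8 P450 genes listed as pericentral summed to 2100 ± 317 and 2128 ± 165 FPKM (SD, n = 3 each).

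**Figure D4:**
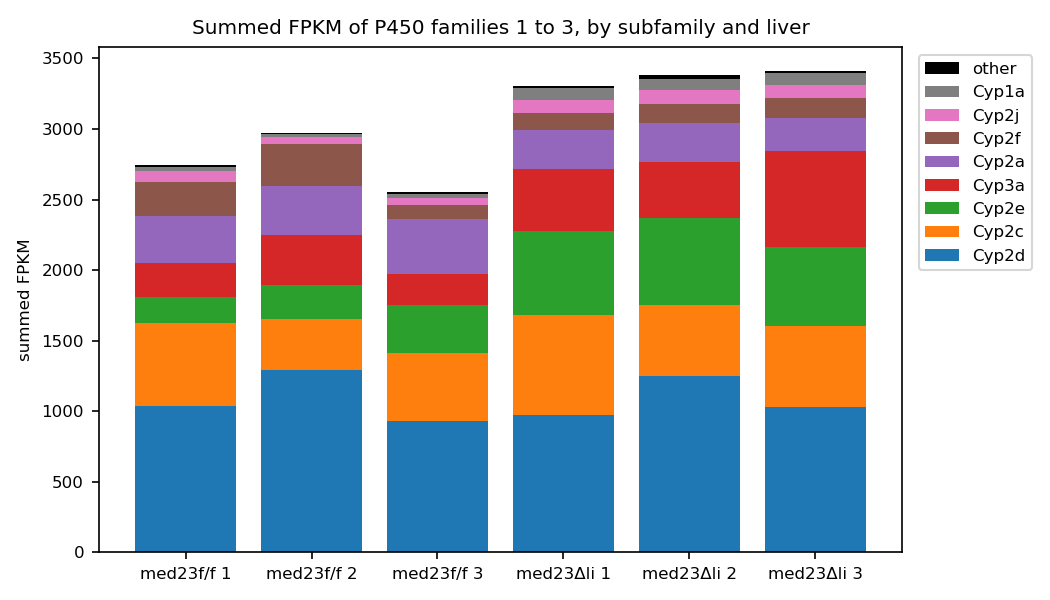
Summed FPKM of the P450 genes in each liver (y axis), stacked by subfamily, for the 3 med23f/f controls and the 3 livers labelled med23Δli. The Cyp2d block is about equal in the groups (means 1087 and 1085 FPKM), while the Cyp2e block grows from a mean of 254 to 590.1 FPKM and the Cyp3a block from 272 to 505 FPKM.

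Grouped by zone, 5 of the 8 pericentral P450 genes were called higher (Cyp1a2, Cyp2c29, Cyp2c50, Cyp2c54 and Cyp2e1) and Cyp2a5 was called lower, against 4.45% and 3.45% of all genes tested, with a median log2 fold change of 1.44. The same background holds for the marker counts that follow. Their summed level was 525 to 810 FPKM in the controls and 1068 to 1399 FPKM in the livers labelled med23Δli. Of 9 pericentral hepatocyte markers outside the P450 genes, 8 were tested, with a median log2 fold change of 0.28. Gulo was called higher and Axin2 passed under 2-fold, whereas Rhbg (-0.73) and Slc1a2 (-0.46) lay in the other direction without passing. The summed level, mostly from Oat, Lect2 and Gulo, was 275 to 289 FPKM in the controls and 376 to 496 FPKM in the livers labelled med23Δli. Glul, the marker of the innermost hepatocytes, did not pass (0.18, adjusted p = 0.553). Of 7 periportal markers 2 were called lower (Hal and Cdh1) and Sds passed under 2-fold, while the summed level was 1178 to 1455 FPKM in the controls and 1060 to 1550 FPKM in the livers labelled med23Δli, which overlap. The general hepatocyte markers had 0 calls by limma among 8 tested, 0 at an adjusted p and 4 at an unadjusted p under 0.05, and summed to 26810 to 37043 FPKM in the controls and 23594 to 30109 FPKM in the livers labelled med23Δli. Endothelial markers moved with the groups, with 4 of 6 called lower and sums of 81.6 to 119 FPKM against 43.3 to 46.6 FPKM. Markers of macrophages, stellate cells, cholangiocytes and neutrophils had 0 calls by limma among 23 tested (1 at an adjusted and 7 at an unadjusted p under 0.05), and the 5 markers of T and NK cells were under the filter. Of 4 erythroid markers tested Hba-a1 was called higher, though it had at most 0.00311 FPKM in the controls and passed the filter only through the labelled livers, so that its call is no support. Hba-a2, Hbb-bs and Alas2 did not pass (-0.13, -2.06 and -0.40), and the list summed to 27.5 to 204 FPKM in the controls and 40.5 to 69.4 FPKM in the livers labelled med23Δli. The part of these markers in the P450 results was not tested.

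The log2 fold change of Alb itself was -0.36 (adjusted p = 0.239) and enters each ratio to it. Set against Alb within each liver, Cyp1a2, Cyp2e1, Cyp3a11 and Cyp2b10 were higher in every liver labelled med23Δli than in any control, by 1.97, 1.61, 1.23 and 3.35 on the log2 scale (exact permutation p = 0.1 each, adjusted p = 0.15 over 12 ratios). Of these genes, Cyp3a11 overlapped between the groups before it was set against Alb. The difference of Cyp2b10 was 2.50 without control replicate 2, 4.23 without control replicate 3 and, at a pseudocount of 1, 2.60, and that of Cyp3a11 was 0.72 without labelled replicate 3. Cyp2f2 against Alb differed by -0.15 (exact permutation p = 0.8), and Cyp1a2 against Cyp1a1 by 0.67 (exact permutation p = 0.5), with values of 0.20 to 1.26 when single livers were left out.

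P450 genes known to be higher in females or in males were taken as separate lists. Of 10 female-biased P450 genes 2 were tested (Cyp2c40 and Cyp2c69), with 0 calls by limma, 0 at an unadjusted p under 0.05, and adjusted p-values of 0.255 and 0.487. Cyp2c69 averaged 0.283 FPKM in the controls and passed the filter only through the labelled livers, with 5.09 FPKM in labelled replicate 1. Cyp2b9 and Cyp2c39 of this list were called higher only under the settings given above, with no filter and without control replicate 3. Each came into that fit only through the labelled livers, so neither call is support. Of 4 male-biased P450 genes, Cyp4a12b (-1.58, adjusted p = 0.0438) and Cyp7b1 (-1.83, adjusted p = 0.0176), both outside families 1 to 3, were called lower (3.45% of all genes tested), whereas Cyp2d9 and Cyp4a12a did not pass.

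Of the 5 partners that supply electrons, 0 were called by limma and 0 had an unadjusted p under 0.05. For Por, Cyb5a, Cyb5b, Cyb5r3 and Pgrmc1, the log2 fold changes lay between -0.34 and 0.26, with adjusted p-values from 0.328 to 0.963. Por, which encodes the reductase for all microsomal P450 enzymes, had 151, 282 and 276 FPKM in the controls and 178, 187 and 174 FPKM in the livers labelled med23Δli.

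Of the 17 transcription factors reported here that act on P450 genes and were tested, 1 was called higher and 0 lower by limma, against 4.45% and 3.45% of all genes tested, a background that holds for the target lists as well. Nr1i3, which encodes CAR, had 4.50, 7.89 and 4.83 FPKM in the controls and 32.2, 33.0 and 28.3 FPKM in the livers labelled med23Δli. Its groups lay far apart (log2 fold change 2.46 ± 0.22, SE, adjusted p = 0.00130). Nr1i2, which encodes PXR, passed under 2-fold (0.77 ± 0.13, SE, adjusted p = 0.00778), as did Stat5b (0.56, adjusted p = 0.0391). Of 8 tested genes listed as targets of CAR and PXR, Cyp2b10, Cyp2c29 and Abcc2 (1.83, adjusted p = 0.00173) were called higher, and Ces2a passed in the other direction under 2-fold (-0.82, adjusted p = 0.0198). Of 3 tested AHR targets Cyp1a2 was called higher and Nqo1, also a target of NRF2, lower (-2.20, adjusted p = 0.0305), while Tiparp did not pass.

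**Figure D5:**
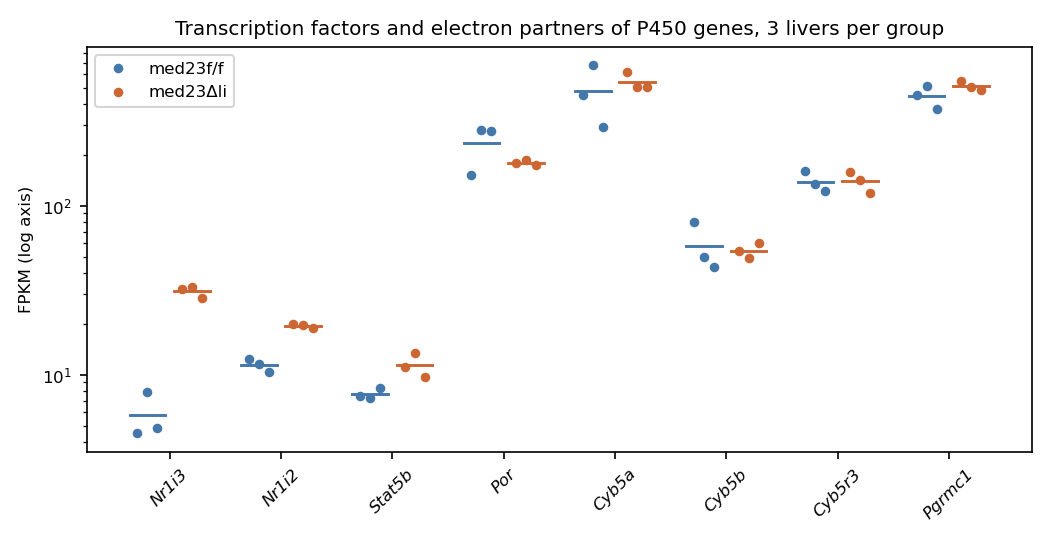
FPKM of each liver (log y axis) for 3 transcription factor genes that passed an adjusted p under 0.05 and for the 5 electron partner genes. Blue points are the 3 med23f/f controls, orange points the 3 livers labelled med23Δli, and short lines are group means. Nr1i3, Nr1i2 and Stat5b are higher in all labelled livers than in any control, while the electron partners overlap between the groups.

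The genes whose values followed Cyp2e1 most closely over the 6 livers were Dhx33, Gab2, Mllt1, Hira and Ppp2r2d, with Pearson correlations of 0.996 to 0.998 on the log2 scale. These are the highest of 11956 genes over 6 livers that fall into 2 groups, so the coefficients describe the pattern only.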

How the data were processed

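RNA from 6 livers, 3 med23f/f and 3 labelled med23Δli, was used, with groups taken from the labels. The authors trimmed the paired reads, aligned them to UCSC mm10 with TopHat and obtained FPKM per gene and library with Cuffdiff. Tool versions, the annotation, the Cuffdiff options and the handling of reads that match several places are not given in the sources used here, and the last could move values between near-identical P450 genes. The deposited table also holds the authors' group FPKM, log2 fold change, test statistic (a score), p-value and q-value, none of which was used. No column of library values was left unmapped.

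The 62 members and the gene lists were chosen with earlier results of these data known, and some genes of these lists are not reported here. Genes averaging 0.5 FPKM or more over the livers were compared as log2(FPKM + 0.1) with limma 3.58.1 in R 4.3.3 (lmFit, eBayes with trend, no block), adjusted over 11956 genes. A call needed an adjusted p under 0.05 and more than 2-fold. Within-liver ratios had exact two-sided permutation tests, adjusted over 12 ratios, of which the 4 between Cyp2c genes were chosen after seeing the data and are printed without a p. These 4 enter the adjustment, so the adjusted p-values of the other ratios rest in part on them. The limma fit was checked on simulated data. Named were members called, members with a mean of at least 20 FPKM and 18 fixed names, with others as examples or through the added ratios.

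Positions and protein identities come from GENCODE M 21 (61 members with a position, 59 with a coding sequence, global alignment in Biopython 1.88 of 207 pairs within subfamilies, of which 8 had at least 95% identity). Promoter windows come from RefSeq (GRCm38.p6, 52 members matched). As alternatives, the pseudocount was set to 1 or 0.01, the filter dropped or raised to 1 FPKM, the livers scaled by median or quantiles, eBayes run without trend or robustly, a replicate block added, the thresholds changed and each liver left out.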

Additional observations from a re-analysis of the deposited data

How the results depend on the processing

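Cyp1a2, Cyp2e1, Cyp2c29 and Cyp2a5 kept their call under all 15 alternatives to the fit. The number of members called higher, 7 as reported, ranged from 4 to 10 when single livers were left out (4 without control replicate 2 or without replicate 3 labelled med23Δli), and was 3 at an adjusted p under 0.01. The number called lower, 2 as reported, ranged from 1 to 3 when single livers were left out, and was 1 at an adjusted p under 0.01. Of 493 alternatives for single genes, 455 kept direction and call, 22 lost the call, 8 gained one and 8 changed sign, all of the last for genes that were not called. With single livers left out, Cyp2a12 ranged from -0.12 to 0.34, Cyp2c37 from -0.45 to 0.70, Cyp2d40 from -0.12 to 0.33 and Cyp2d9 from -0.32 to 0.092 on the log2 scale, and Cyp2d40 was at -0.015 with quantile normalization. In the same way the difference in the log2 ratio of Cyp2f2 to Alb ranged from -0.50 to 0.077 and that of Cyp2c54 to Cyp2c50 from -0.067 to 0.11, the latter being -0.025 with a pseudocount of 1. The cause was not tested. Median centring and quantile normalization moved the median of all genes to -0.005 and -0.017 and left the members' median at 0.63 and 0.57.

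The replicate numbers did not pair the livers: deviations from the group means correlated at -0.02, -0.05 and -0.12 between livers of the same number, and 0 of 6 livers correlated best with their own number. With the replicate number as a block, 6 members were called higher and 2 lower, and Cyp2b10 had an adjusted p of 0.0554. With no filter 5 members were called higher and 3 lower, with Cyp2b9 and Cyp2d11 among them. The call of Cyp2b9, listed at 0 in all controls, is no support. FPKM values carry no depth, so the counting error of such low members is unknown.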
